A study of Homo sapiens and Mus musculus with 34 samples.

Results

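The comparison asked how the early response to CYC065 differed between the neuroblastoma lines Kelly and SHSY5Y and the lines SKNAS and BE2C. It used all 24 human arrays among the 34 arrays of the series, that is 12 arrays of Kelly and SHSY5Y and 12 of SKNAS and BE2C, with 3 CYC065-treated and 3 untreated arrays per line. The 8 groups were Kelly CYC065, Kelly untreated, SHSY5Y CYC065, SHSY5Y untreated, SKNAS CYC065, SKNAS untreated, BE2C CYC065 and BE2C untreated. Cells were exposed for 1 h at 1 µM per the sample labels, but the treatment protocol gives 5 µM for SKNAS, so a dose difference and the line cannot be told apart there. The controls are untreated in the labels and DMSO in the design text. Kelly and SHSY5Y are both known, as general knowledge, to carry an activating ALK mutation, and Kelly and BE2C to carry an amplified MYCN gene. Kelly and SKNAS came from an earlier deposit and BE2C and SHSY5Y from a later one, so each side of the difference held 1 line of each deposit and 1 line with MYCN amplification.

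CYC065 inhibits cyclin-dependent kinases, among them CDK9, the catalytic subunit of P-TEFb. P-TEFb phosphorylates RNA polymerase and lets it pass from promoter-proximal pausing into elongation, so that short-lived transcripts are the first to decline when it is inhibited. ALK is a receptor tyrosine kinase that signals through RAS and ERK. Sympathetic neuroblasts owe their adrenergic identity to a circuit of transcription factors that includes HAND2, GATA3 and ISL1.

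The deposited values were log2 levels, in which 1 unit is a doubling, with array medians of 4.55 to 4.87 and replicate correlations of 0.992 to 0.998. With 2 lines on each side, the p-values describe these 4 lines and their arrays and not ALK mutation in general. The design text calls the arrays of a group biological replicates. The untreated marker levels were adrenergic in Kelly, SHSY5Y and BE2C, where DBH, the noradrenaline-synthesising enzyme, averaged 11.96, 12.47 and 11.53. SKNAS stood apart in these effector genes, with DBH at 5.97 and CHGA, a secretory granule protein, at 6.60. CHGA averaged 11.72, 10.97 and 11.13 in Kelly, SHSY5Y and BE2C. The adrenergic factors HAND2, GATA3 and ISL1 were also lowest in SKNAS, at 9.09, 9.31 and 8.62, but lay well above its median row of 4.58. In BE2C they averaged 9.84, 9.69 and 9.60, so these factors set SKNAS apart far less than DBH and CHGA did. Of 6 mesenchymal markers, VIM (11.56), CD44 (7.64), PRRX1 (6.77) and COL1A1 (7.21) had their highest mean in SKNAS, whereas FN1 averaged 7.85 in Kelly, 6.01 in SHSY5Y, 5.97 in SKNAS and 5.55 in BE2C, and TWIST1 8.03, 8.96, 8.05 and 8.13. Of 4 immune markers, the leukocyte gene PTPRC (8.65) and the macrophage gene CD68 (9.70) were highest in SKNAS. In Kelly, SHSY5Y and BE2C, PTPRC averaged 2.89, 3.04 and 3.10, and CD68 averaged 6.42, 6.35 and 6.61. The immune genes CD3E, at 4.76 to 5.07, and LYZ, at 2.77 to 2.93, were not highest in SKNAS. The Schwann cell gene SOX10 averaged 5.86 in Kelly, 6.23 in SHSY5Y, 5.88 in SKNAS and 6.12 in BE2C. The part of these line differences in the results was not tested, beyond the values given without SKNAS.

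The larger share of the difference was a deeper fall in Kelly and SHSY5Y. The difference was the mean change of Kelly and SHSY5Y minus the mean change of SKNAS and BE2C, tested over 32858 named genes and called at an adjusted p under 0.05. It was called lower for 963 genes (2.93% of those tested) and higher for 169 (0.514%), with a median over all genes of 0.01. Of these, 9 were lower and 11 higher by at least 2-fold. The counts moved with the lines used: 269 lower and 65 higher without Kelly, 1475 and 364 without SHSY5Y, 614 and 84 without SKNAS, and 492 and 215 without BE2C. Both Kelly and SHSY5Y changed more negatively than both SKNAS and BE2C in 855 of the 963, an order that calling genes on this difference favours. Of the 963, 803 were called lower in both Kelly and SHSY5Y, 361 in all 4 lines, and 258 in Kelly and SHSY5Y with no call in SKNAS or BE2C. The untreated level lay above the median row of the array in all 4 lines for 91.7% of the 963, for 51.5% of the 169 and for 57.0% of all genes.

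Most of the 169 higher differences came with falls in SKNAS or BE2C, which were called for 115 of them. Only 60 were called higher in Kelly or SHSY5Y, and 85 had no call in either. In the 4 lines taken alone, CYC065 lowered 3522 genes in Kelly (10.7%), 2244 in SHSY5Y (6.83%), 1975 in SKNAS (6.01%) and 1489 in BE2C (4.53%). Genes were also grouped by their mean change over the 4 lines, a grouping made after the values were seen. Among the 84 genes with a mean change between -1.5 and -1, the median change was -1.54 in Kelly, -1.22 in SHSY5Y, -1.06 in SKNAS and -0.83 in BE2C. Among the 1328 genes between -0.5 and -0.25 it was -0.49, -0.35, -0.28 and -0.24 in the same lines. Kelly had the deepest median and BE2C the shallowest in both groups. The order was not the same everywhere: in the 12 genes below -1.5 the median was -1.62 in SHSY5Y and -1.66 in SKNAS, and in the 8451 genes between -0.25 and 0 it was -0.0635 in Kelly and deepest in BE2C, at -0.0675.

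**Figure D1:**
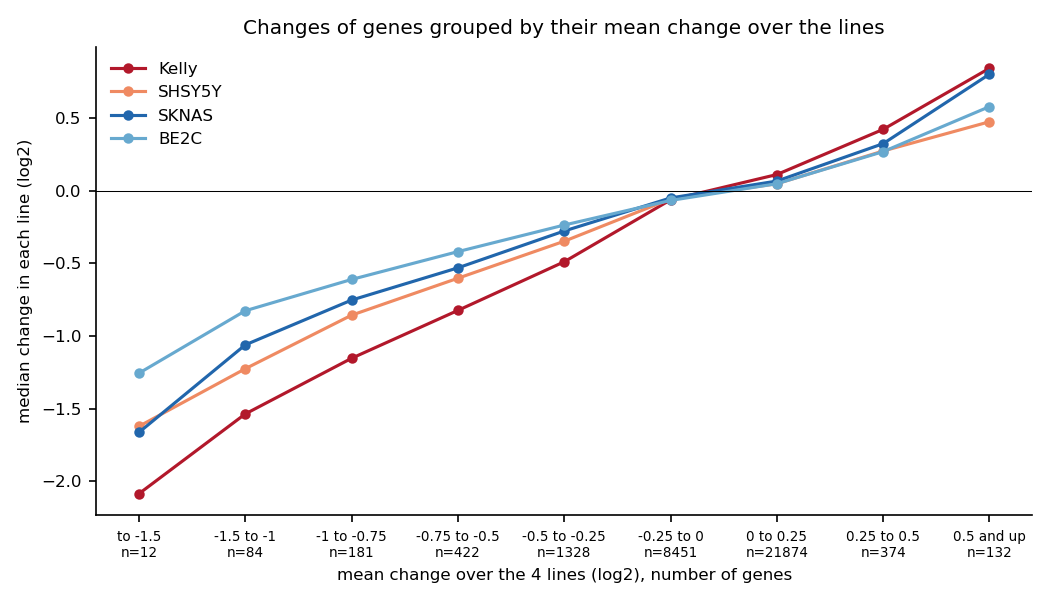
Median log2 change in each line (y axis) for genes grouped by their mean log2 change over the 4 lines (x axis, with the number of genes). From -1.5 to -0.25 the medians run Kelly, SHSY5Y, SKNAS, BE2C from deepest to shallowest; the group below -1.5 holds only 12 genes.

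The difference was also taken inside each deposit, in arrays that do not overlap. Kelly minus SKNAS was lower for 972 genes (2.96%) and higher for 312 (0.950%). SHSY5Y minus BE2C was lower for 279 (0.849%) and higher for 50 (0.152%). The lower lists shared 133 genes, which is 13.7% of the list of the earlier deposit and 47.7% of that of the later one. The SHSY5Y minus BE2C calls, 329 in all, came to 207 with array medians centred and 109 with the spread of that deposit alone, and the shared genes rest on the 329. The higher lists shared 7 genes, and 21 genes were called in opposite directions. Leaving out each line in turn, 150 lower and 7 higher genes were called under every omission. Of the 963 lower genes 915 had the same sign in both deposits, as had 139 of the 169 higher genes. The difference is the mean of the differences inside the deposits, so calling genes on it favours a shared sign.

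**Figure D2:**
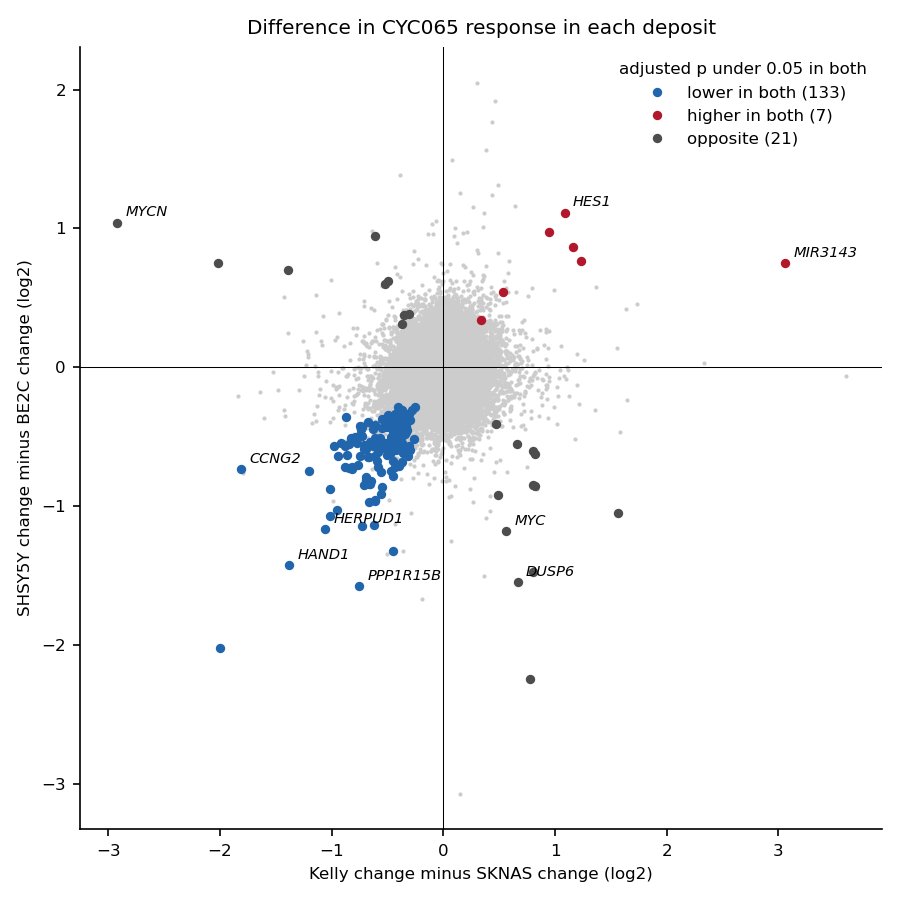
Kelly change minus SKNAS change (x axis, log2) against SHSY5Y change minus BE2C change (y axis, log2), 1 point per gene. Coloured points passed adjusted p under 0.05 in both deposits: 133 lie lower in both, 7 higher in both and 21 in opposite directions, among them MYCN, MYC and DUSP6.

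Adrenergic transcription factors were lower in the difference for 13 of 30 measured members (43.3%) and higher for none, with a list median of -0.23. Over all genes the shares were 2.93% lower and 0.514% higher, and these apply to every list count of the difference below. HAND1, a basic helix-loop-helix factor of heart and sympathetic lineages, had log2 levels of 9.40, 9.37 and 9.53 in CYC065-treated Kelly and 10.86, 10.74 and 10.89 in untreated Kelly. In SHSY5Y it had 8.67, 8.59 and 8.75 with CYC065 and 10.41, 10.43 and 10.54 untreated. SKNAS gave 6.45, 6.33 and 6.29 with CYC065 and 6.26, 6.43 and 6.41 untreated. BE2C gave 10.99, 10.82 and 10.93 with CYC065 and 11.23, 11.25 and 11.37 untreated. The treated arrays lay below the untreated ones in Kelly, SHSY5Y and BE2C and overlapped them in SKNAS, the line in which HAND1 was dim. HAND1 thus fell 2.62-fold in Kelly and 3.47-fold in SHSY5Y, against 1.29-fold in BE2C, where the untreated level was highest. Its difference was -1.40 ± 0.07 (SE; adjusted p = 7.48e-11, limma), with -1.38 in the earlier and -1.42 in the later deposit.

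HAND2, the paralogue that works in the adrenergic circuit, changed by -0.63 in Kelly and -0.60 in SHSY5Y, against -0.22 in SKNAS and -0.16 in BE2C, a difference of -0.43 ± 0.05 (adjusted p = 2.17e-05). GATA2, a zinc finger factor of the sympathetic lineage, changed by -1.22 in Kelly and -0.98 in SHSY5Y, against -0.50 in SKNAS and -0.55 in BE2C. Both were called lower in each deposit. TBX2, a T-box repressor, had a difference of -0.62 and INSM2, a neuroendocrine zinc finger factor, of -0.56, and neither was called in the later deposit. The second row of TBX2 gave -0.25. GATA3 and ISL1 fell in all 4 lines, and their differences of -0.42 and -0.37 came with a shallow fall in BE2C: GATA3 fell 3.31-fold in Kelly and 2.79-fold in SHSY5Y, against 2.82-fold in SKNAS and 1.82-fold in BE2C. Of 34 measured sympathoadrenal differentiation genes none was called, a count near the background of 2.93% lower and 0.514% higher over all genes.

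**Figure D3:**
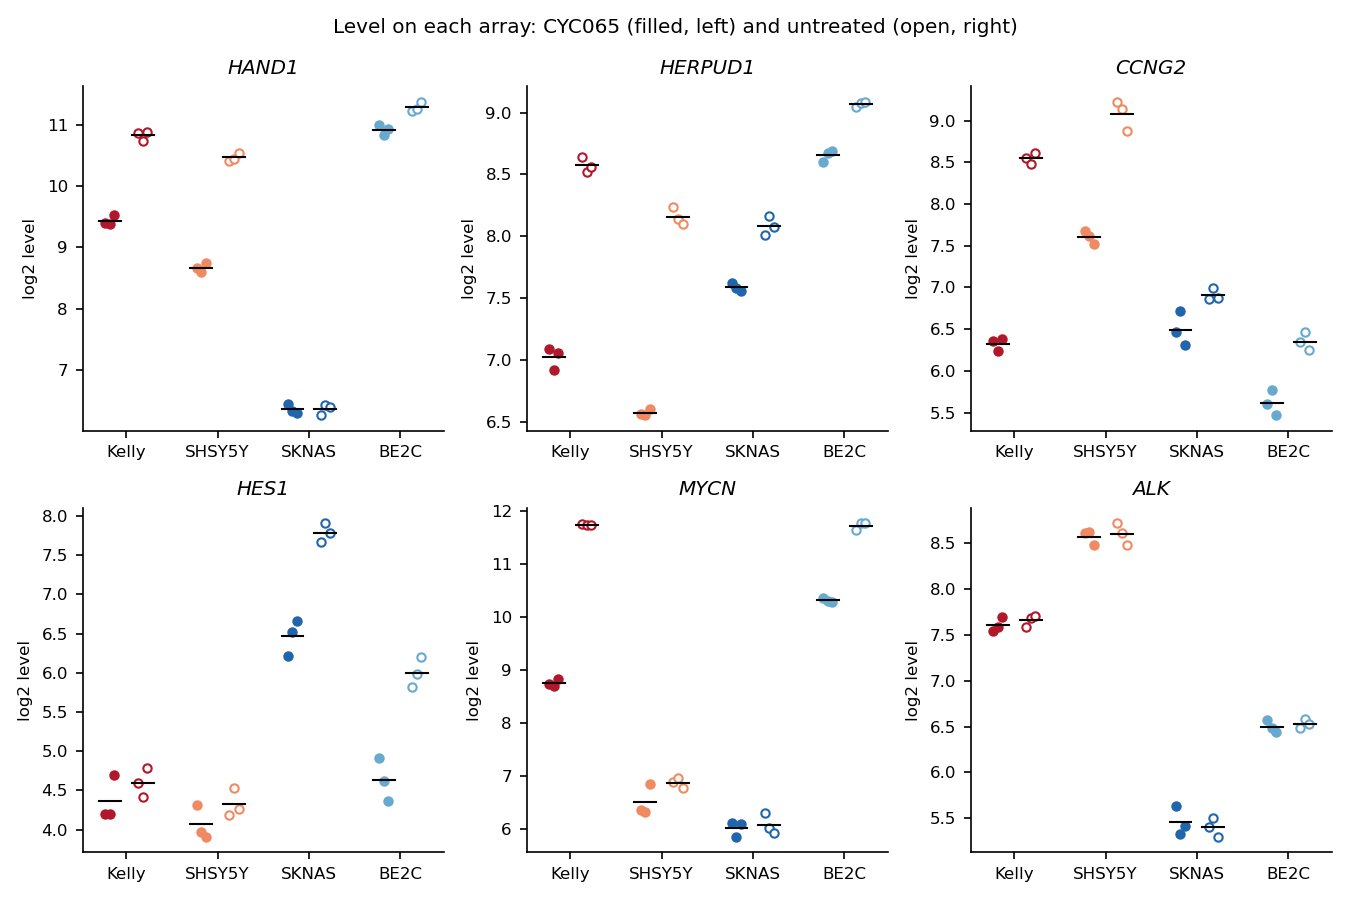
Log2 level on each array (y axis) of 6 genes in 4 lines; filled points are CYC065 and open points untreated arrays (3 each), and the black bar is the mean. HAND1, HERPUD1 and CCNG2 fell more in Kelly and SHSY5Y than in SKNAS and BE2C, HES1 was called changed in SKNAS and BE2C alone, MYCN fell most in Kelly and then in BE2C, and ALK overlapped between treated and untreated arrays in every line.

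Among ATF4 and unfolded protein response genes, 7 of 29 were lower (24.1%, against 2.93% of all genes) and none was higher. HERPUD1, a membrane protein of endoplasmic reticulum-associated degradation that is induced by unfolded protein, had 7.09, 6.92 and 7.06 in treated Kelly and 8.64, 8.52 and 8.56 in untreated Kelly. SHSY5Y had 6.57, 6.55 and 6.61 with CYC065 and 8.23, 8.14 and 8.10 untreated. SKNAS had 7.62, 7.59 and 7.56 with CYC065 and 8.01, 8.16 and 8.08 untreated, and BE2C had 8.60, 8.67 and 8.69 with CYC065 and 9.05, 9.07 and 9.09 untreated. No treated array reached an untreated one in any line. The untreated levels of the lines lay within about 1 log2 unit, whereas the fall was 2.93-fold in Kelly and 2.99-fold in SHSY5Y, against 1.41-fold in SKNAS and 1.33-fold in BE2C. The difference was -1.11 ± 0.06 (adjusted p = 7.48e-11).

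The 250 bases before the HERPUD1 start are printed because this promoter carries a stress element that is well known in the gene. From RefSeq (GRCh38.p14, plus strand), chr16:56931892-56932141, with the element ATTGGNCCACG in capitals, it reads as follows.
HERPUD1: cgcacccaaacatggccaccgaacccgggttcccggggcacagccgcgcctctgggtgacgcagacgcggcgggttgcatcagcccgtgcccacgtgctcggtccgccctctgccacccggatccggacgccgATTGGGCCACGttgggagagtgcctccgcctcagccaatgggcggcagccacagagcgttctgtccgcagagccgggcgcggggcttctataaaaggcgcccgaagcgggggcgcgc
On either strand these letters occurred in 18 of 35116 upstream windows of the same length (0.0513%). The match describes the sequence and is no evidence of binding in these cells.

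PPP1R15B, a phosphatase regulatory subunit, changed by -1.80 in Kelly and -2.30 in SHSY5Y, against -1.05 in SKNAS and -0.72 in BE2C. Its second row on the array gave a difference of -0.09 only, against -1.17 for the brighter row. VLDLR, a lipoprotein receptor, fell in Kelly (-0.53) and SHSY5Y (-0.68), against 0.04 in SKNAS and -0.11 in BE2C, neither called. SLC3A2, a subunit of amino acid transporters, differed in the later deposit (-0.93) with 0.07 in the earlier one, and its second row gave -0.11 against -0.43 for the first.

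Growth arrest genes followed a like pattern, with 7 of 35 FOXO and growth arrest targets lower and 1 higher. CCNG2, a cyclin that restrains proliferation, had 6.35, 6.24 and 6.38 in treated Kelly and 8.55, 8.48 and 8.61 in untreated Kelly. In SHSY5Y it had 7.67, 7.62 and 7.53 with CYC065 and 9.23, 9.14 and 8.88 untreated. SKNAS had 6.46, 6.71 and 6.31 with CYC065 and 6.86, 6.99 and 6.88 untreated. BE2C had 5.60, 5.77 and 5.47 with CYC065 and 6.34, 6.46 and 6.25 untreated. CCNG2 fell in all 4 lines without overlap, by 2.22 in Kelly on the log2 scale and least in SKNAS. Its difference was -1.27 ± 0.10 (adjusted p = 1.2e-07), and -0.33 for its second row.

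TOB1, which recruits deadenylases to messages and slows proliferation, changed by -1.91 in Kelly and -1.80 in SHSY5Y, against -0.90 in SKNAS and -0.73 in BE2C. The list of mRNA decay and antiproliferative genes held 7 lower members of 30 and no higher one. BTG1, of the same family, had a difference of -0.58, with -0.73 in the earlier and -0.43 in the later deposit, the last not called. ZFP36L2, which binds AU-rich elements, and BTG2 fell most in Kelly, with changes of -2.33 and -1.58, and their differences of -0.78 and -0.57 were -0.04 and 0.01 in the later deposit. ARRDC3, an arrestin, and GADD45A, a stress sensor, differed by -0.50 and -0.44. Of this pair, GADD45A was called in both deposits and ARRDC3 in the earlier one.

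Of 30 p53 targets, 8 were lower and none higher. PPM1D, the phosphatase that switches off p53 signalling, changed by -1.49 in Kelly and -1.47 in SHSY5Y, against -0.92 in SKNAS and -0.91 in BE2C, and its second row gave a difference of -0.55, close to the -0.57 of the first. TP53INP1, a stress protein, changed by -0.98 in Kelly and -0.83 in SHSY5Y, against -0.37 in SKNAS and 0.13 in BE2C, where it was not called. Its untreated level in BE2C, 4.71, lay below that line's median row of 4.75, which limits what fall could be measured. AEN, an exonuclease of apoptosis, differed by -0.52 with only -0.03 in the later deposit.

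MED17, a core subunit of Mediator, had 6.40, 6.47 and 6.56 in treated Kelly and 7.92, 7.88 and 7.97 in untreated Kelly, and 5.95, 5.88 and 5.92 in treated SHSY5Y and 7.57, 7.63 and 7.47 in untreated SHSY5Y. SKNAS had 6.38, 6.48 and 6.43 with CYC065 and 7.05, 7.21 and 7.17 untreated, and BE2C had 7.58, 7.80 and 7.55 with CYC065 and 8.22, 7.98 and 8.20 untreated. MED17 fell in every line with no overlap, and the difference was -0.94 ± 0.07 (adjusted p = 1.2e-07). MED17 is not a member of the list of Mediator and cell cycle CDK genes. Of 30 genes of that list 6 were lower, among them MED13 (-0.40), CCNE2 (-0.33) and CDK7 (-0.29), the kinase of the CDK-activating complex. P-TEFb genes gave 3 lower of 37 (8.11%, against 2.93% of all genes). These were HEXIM1, the P-TEFb inhibitor, at -0.39, MEPCE, which caps 7SK RNA, at -0.33 and LEO1 of the PAF complex at -0.27. HEXIM1 and CCNE2 were called in neither deposit alone. MED13, CDK7, MEPCE and LEO1 were called in the earlier deposit and not in the later one. CCNT1 (-0.21; adjusted p = 0.17) and CDK9 (-0.01; adjusted p = 0.96) were not called.

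AURKA, a mitotic kinase that also stabilises MYCN protein, changed by -0.93 in Kelly and -1.26 in SHSY5Y, against -0.31 in SKNAS and -0.30 in BE2C, and was called in both deposits. E2F8, a repressor of the E2F family, differed by -0.70, also in both. Mitotic and replication genes gave 5 lower of 38. Splicing kinases and SR proteins gave 5 lower and 1 higher of 27, led by CLK1, a kinase of SR proteins, at -0.89, which changed by -2.08 in SHSY5Y and whose second row gave a difference of -0.55. TRA2B was the higher one, at 0.28, with a fall in SKNAS. Zinc finger ZNF and ZFP genes gave 86 lower and 1 higher of 560, with ZNF844 (-0.87), ZNF594 (-0.79) and ZNF830 (-0.78) among the largest differences. Untreated ZNF844 lay below the median row in SKNAS, at 4.08 against 4.58.

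Of the remaining large lower differences, ALX1, a homeobox gene, changed by -1.67 in Kelly and -0.82 in SHSY5Y, against 0.12 in SKNAS and -0.06 in BE2C, neither called. HTR1E, a serotonin receptor gene, fell by 1.29 in Kelly and 0.92 in SHSY5Y on the log2 scale with no call in SKNAS or BE2C. Both had untreated levels higher in Kelly and SHSY5Y, by 2.21 for ALX1 and 1.68 for HTR1E. ASXL3, a Polycomb-associated gene, and TIGD2 differed by -0.98 and -0.95, and the second row of ASXL3 gave -0.55. Untreated ALX1 was 4.15 in SKNAS and 4.46 in BE2C, and untreated ASXL3 4.19 and 4.42. All lay below the median row, 4.58 in SKNAS and 4.75 in BE2C, which limits what fall could be measured there. Neither ALX1 nor ASXL3 was called in the later deposit. HOXD13 was called changed in Kelly (-1.42) and in none of the other 3 lines.

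**Figure D4:**
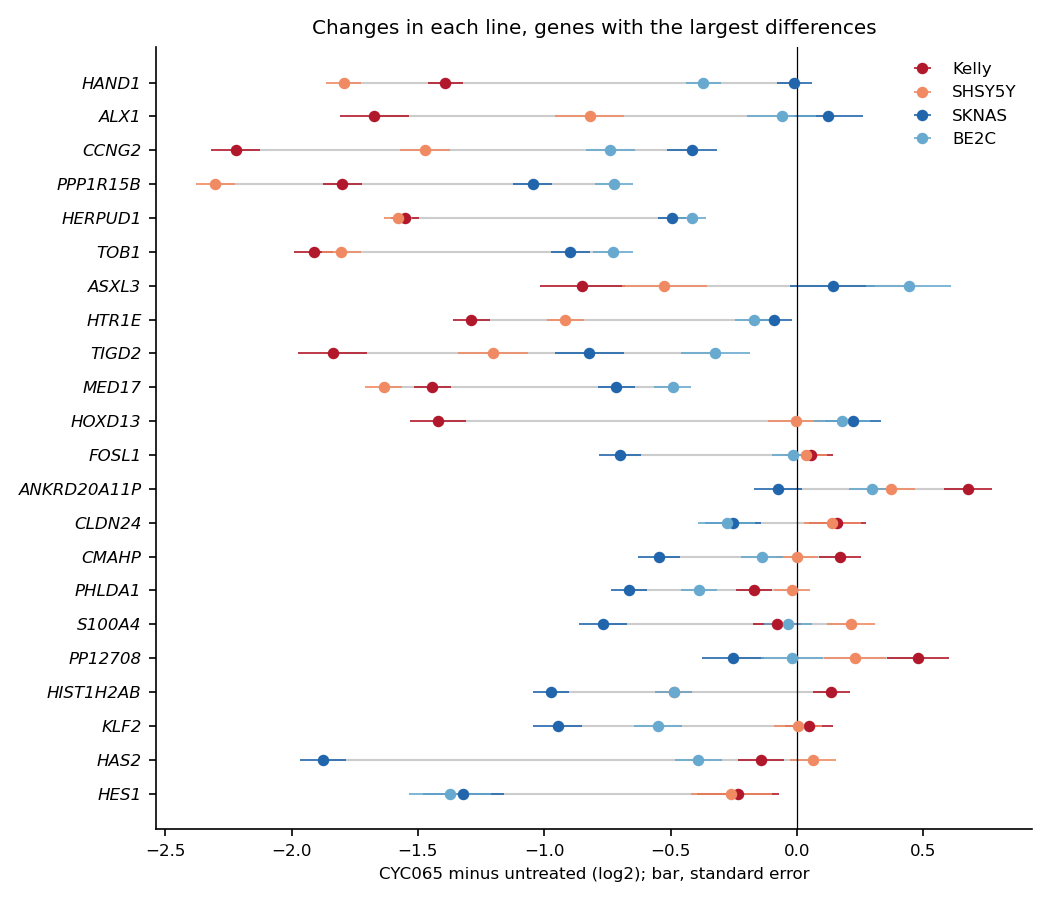
Log2 change in each line (x axis; points are CYC065 minus untreated means, bars the standard error, 3 against 3 arrays) for the genes with the largest lower and higher differences reported here. For HERPUD1, TOB1 and MED17, Kelly and SHSY5Y lie together to the left of SKNAS and BE2C; for HAS2 and FOSL1, SKNAS lies farthest to the left.

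MYC network genes were lower for 6 of 14 and higher for none, but MYCN and MYC did not separate the lines in the same way. MYCN had 8.73, 8.70 and 8.82 in treated Kelly and 11.75, 11.73 and 11.73 in untreated Kelly, and 6.35, 6.31 and 6.84 in treated SHSY5Y and 6.88, 6.96 and 6.76 in untreated SHSY5Y. SKNAS had 6.10, 5.84 and 6.08 with CYC065 and 6.30, 6.01 and 5.91 untreated, and BE2C had 10.35, 10.30 and 10.28 with CYC065 and 11.63, 11.76 and 11.76 untreated. Only the amplified lines were high, and treated and untreated arrays overlapped in SHSY5Y and SKNAS. The pooled difference of -0.94 was -2.92 in the earlier deposit and 1.04 in the later one, both called, and 0.37 without Kelly (adjusted p = 0.50). MYC ran the other way, with 0.56 in the earlier and -1.18 in the later deposit, and it fell by 1.07 in SHSY5Y and by 0.40 in SKNAS on the log2 scale. MXD1 and MNT, MAX partners that oppose MYC, differed by -0.34 and -0.32 with the same sign in both deposits.

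ALK itself had 7.54, 7.58 and 7.70 in treated Kelly and 7.58, 7.68 and 7.71 in untreated Kelly, and 8.61, 8.62 and 8.49 in treated SHSY5Y and 8.72, 8.61 and 8.48 in untreated SHSY5Y. SKNAS had 5.63, 5.33 and 5.42 with CYC065 and 5.40, 5.50 and 5.30 untreated, and BE2C had 6.57, 6.49 and 6.44 with CYC065 and 6.48, 6.58 and 6.52 untreated. The ALK message was thus higher in untreated Kelly and SHSY5Y, by 2.17 on the log2 scale, and was not called changed in any line (difference -0.06 ± 0.08; adjusted p = 0.85). Of 46 ALK and RAS pathway components, 5 were lower, led by the adaptor CRKL (-0.47), RICTOR of the second mTOR complex (-0.39) and PIK3R1, the regulatory subunit of PI3-kinase (-0.38). None of these 3 was called in the later deposit, and the second row of PIK3R1 gave -0.03. IRS2 at -0.38 was not called (adjusted p = 0.081).

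ERK feedback inhibitors and ETS targets gave 7 lower and 2 higher of 39. SPRY2, an inhibitor of receptor signalling to RAS, changed by -1.69 in Kelly and -1.74 in SHSY5Y, against -1.56 in SKNAS and -0.90 in BE2C, so that the difference of -0.49 stood mainly on the later deposit (-0.84) and less on the earlier (-0.13, not called). DUSP6, the ERK phosphatase, changed by -1.49 in Kelly and -2.05 in SHSY5Y, against -2.16 in SKNAS and -0.50 in BE2C. Treated DUSP6 averaged 4.21 in Kelly, 4.51 in SHSY5Y, 4.35 in SKNAS and 4.43 in BE2C, below the median row of each line. Untreated DUSP6 in BE2C was 4.92, near that line's median row of 4.75, which limits what fall could be measured there. Its difference was 0.67 in the earlier and -1.55 in the later deposit, both called, and its second row gave 0.23. ETV4, ETV5, EGR1, FOS, CCND1, RET, SPRY4 and TXNIP had no called difference. The 2 higher genes were PHLDA1 (0.43) and FOSL1 (0.41), with falls called in SKNAS for both.

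Immediate early genes gave 6 lower and 5 higher of 45. Among the lists described, the median difference was deepest in the adrenergic factors, at -0.23, then -0.13 in p53 targets, -0.12 in ATF4 and unfolded protein response genes and -0.11 in the MYC network, against 0.01 over all genes. The other lists with more lower than higher calls had medians from -0.081 to -0.0027. The lists led by higher calls had medians of 0.19 in histones, 0.07 in C/D box RNA genes, 0.04 in microRNA genes and 0.02 in NF-kB targets.

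**Figure D5:**
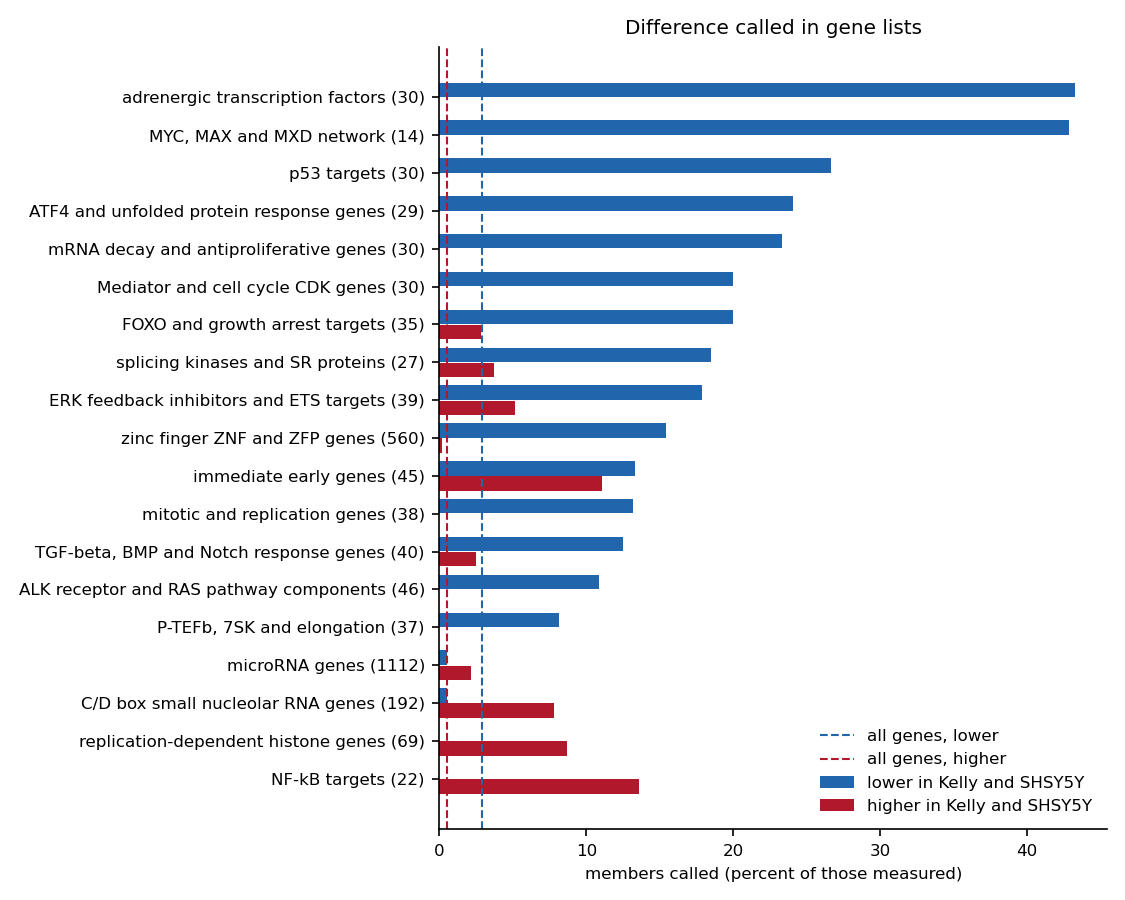
Percent of measured members (x axis; number measured in brackets) whose difference was called lower (blue) or higher (red) in Kelly and SHSY5Y, by gene list. Dashed lines give the same percent over all 32858 genes, 2.93 lower and 0.514 higher; adrenergic transcription factors reach 43.3% lower.

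HES1, a Notch-induced repressor of neuronal differentiation, had the largest higher difference among the genes with the same sign in both deposits, small RNA genes and clone-named symbols left out. It had 4.20, 4.20 and 4.70 in treated Kelly and 4.60, 4.41 and 4.79 in untreated Kelly, and 4.32, 3.98 and 3.91 in treated SHSY5Y and 4.18, 4.53 and 4.27 in untreated SHSY5Y. SKNAS had 6.22, 6.52 and 6.66 with CYC065 and 7.67, 7.91 and 7.78 untreated, and BE2C had 4.91, 4.61 and 4.36 with CYC065 and 5.82, 5.99 and 6.20 untreated. HES1 fell without overlap in SKNAS and BE2C, while in Kelly and SHSY5Y it lay near the median row of the array, which was 4.57 in untreated Kelly and 4.80 in untreated SHSY5Y, and overlapped. The difference was 1.10 ± 0.16 (adjusted p = 2.14e-04), 1.09 in the earlier and 1.11 in the later deposit. A second row gave 0.90.

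The HES1 promoter is shown because it holds 2 sites for RBPJ, the DNA-binding partner of Notch. Its 250 upstream bases (RefSeq, GRCh38.p14, plus strand), chr3:194135898-194136147, have TGGGAA in capitals.
HES1: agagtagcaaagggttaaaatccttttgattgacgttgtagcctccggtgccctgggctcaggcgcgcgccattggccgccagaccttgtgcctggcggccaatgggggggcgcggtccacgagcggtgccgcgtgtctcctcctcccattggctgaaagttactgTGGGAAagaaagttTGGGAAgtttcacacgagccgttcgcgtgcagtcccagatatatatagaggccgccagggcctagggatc
The letters occurred on either strand in 20.8% of all windows of this length.

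Among 40 TGF-beta, BMP and Notch response genes, 5 were lower and 1, HES1, higher. NRARP, a Notch feedback inhibitor, changed by -1.33 in Kelly and -0.93 in SHSY5Y, against 0.14 in SKNAS and -0.77 in BE2C. Its untreated level in SKNAS, 4.42, lay below that line's median row of 4.58. HEY1, a HES-related repressor, changed by -1.38 and -0.80 in Kelly and SHSY5Y, against -0.32 and -0.58 in SKNAS and BE2C. Neither was called in the later deposit, with -0.17 for NRARP and -0.22 for HEY1. AXIN2, a WNT feedback gene counted in this list, fell in Kelly (-0.42) and SHSY5Y (-0.53) and was called lower in both deposits.

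HAS2, hyaluronan synthase, had no called change in Kelly (-0.14) or SHSY5Y (0.06), where its levels were 4.12 to 4.51. These lay below the median row of either line (4.57 and 4.80), which limits what fall could be measured. In SKNAS it had 6.06, 6.17 and 6.26 with CYC065 and 7.87, 8.23 and 8.02 untreated, without overlap. It also fell in BE2C (-0.39), and the later deposit's difference of 0.45 was not called. KLF2, an endothelial and immune transcription factor, changed by 0.05 in Kelly and 0.00 in SHSY5Y, neither called, against called changes of -0.95 in SKNAS and -0.55 in BE2C, at untreated levels between 6.20 and 7.65. These levels lay above the median row in all 4 lines, and the later deposit's difference of 0.55 was not called (adjusted p = 0.054). S100A4 and CMAHP were called changed in SKNAS alone, and CLDN24 in no line. Untreated CMAHP was 3.43 in Kelly, 3.79 in SHSY5Y and 4.44 in BE2C, below the median row of each. Untreated S100A4 lay near the median row in Kelly (4.57) and SHSY5Y (4.87) and above it in BE2C (5.57). At such low levels a fall could hardly be measured. JUN had a difference of 0.34. Of 22 NF-kB targets 3 were higher and none lower: NFKBIZ (0.37), NFKBIA (0.33) and BIRC3 (0.22). NFKBIZ and BIRC3 had their deepest change in SKNAS and differences of -0.082 and -0.10 without it. Untreated NFKBIZ was 5.17 in SKNAS, against 4.15 in Kelly, 4.18 in SHSY5Y and 4.22 in BE2C. Untreated BIRC3 was 5.20, against 3.33, 3.33 and 3.40. Outside SKNAS both lay below the median row, which limits what fall could be measured. The BIRC3 call was lost in 20 of the 24 omissions of a single array.

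For small RNA genes, the array rows do not separate the hairpin from its mature arms. MicroRNA genes gave 24 higher (2.16%) and 6 lower (0.540%) of 1112. C/D box small nucleolar RNA genes gave 15 higher (7.81%) and 1 lower (0.521%) of 192. Together these higher counts include 19 genes of a single region on chromosome 14, described below. In that region 29 of 92 small RNA genes were called lower in BE2C, so the counts do not describe the classes alone. Over all genes 0.514% were higher and 2.93% lower. MIR3143 had 9.87, 9.98 and 10.11 in treated Kelly and 7.57, 7.38 and 7.54 in untreated Kelly, and 8.68, 8.37 and 8.14 in treated SHSY5Y and 6.67, 6.68 and 6.91 in untreated SHSY5Y. SKNAS had 6.67, 6.49 and 6.44 with CYC065 and 6.95, 7.19 and 7.16 untreated, and BE2C had 7.91, 7.85 and 8.17 with CYC065 and 7.12, 7.16 and 6.97 untreated. MIR3143 rose in Kelly, SHSY5Y and BE2C and fell in SKNAS, with no overlap in any line, at a difference of 1.91 ± 0.12 (adjusted p = 3.14e-09). It lies on chromosome 6 beside the histone gene H2AC12. Replication-dependent histone genes gave 6 higher and none lower of 69, with HIST1H2AB (0.55) and HIST1H3I (0.37) called. The histone list fell most in SKNAS, where 49 members were called lower, against 11 in Kelly, 28 in SHSY5Y and 13 in BE2C. Over all genes the share called lower was 6.01% in SKNAS, 10.7% in Kelly, 6.83% in SHSY5Y and 4.53% in BE2C.

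The mature sequences of 4 microRNA genes are printed to show that they carry unlike seeds (bases 2 to 8, in capitals), as RefSeq gives them.
miR-503-5p: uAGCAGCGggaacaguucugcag
miR-590-5p: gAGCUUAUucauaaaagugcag
miR-889-3p: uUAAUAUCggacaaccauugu
miR-544a: aUUCUGCAuuuuuagcaaguuc
MIR889 fell in BE2C alone, with 2.59, 2.81 and 2.62 after CYC065 and 5.08, 4.63 and 5.09 untreated. Kelly and SHSY5Y stayed at 2.09 to 2.77 on all arrays, below the array's median row. MIR889 and MIR544A lie within MIR381HG on chromosome 14, next to each other. From MEG3 to MIR656 on that chromosome, a region chosen after the values were seen, 92 small RNA genes were measured, of which 19 were higher and none lower in the difference. There, 3 were called higher and none lower in Kelly, none either way in SHSY5Y, 6 higher and 1 lower in SKNAS, and 2 higher and 29 lower in BE2C. MIR590, within EIF4H, changed by -0.46 in Kelly, called, and -0.30 in SHSY5Y, not called, against a called -2.79 in SKNAS and -0.33 in BE2C, not called, and EIF4H itself was not called different (0.10; adjusted p = 0.55).

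The 7 genes called higher in both deposits were HES1, SNORD93, MIR3143, MIR503, MIR539, RN7SKP56 and NABP1, the last 4 of which were picked out after their values were seen. MIR503 changed by -0.05 in Kelly and 0.04 in SHSY5Y, against -1.21 in SKNAS and -0.82 in BE2C, and its host MIR503HG had a difference of 0.47 (adjusted p = 9.52e-04). SNORD93 changed by -0.25 in Kelly and 0.01 in SHSY5Y, against -1.49 in SKNAS and -0.76 in BE2C. Of the 7, MIR3143 was called higher in both Kelly and SHSY5Y, MIR539 in Kelly, and the others in neither.

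NFE2L3, a cap'n'collar transcription factor, rose by 2.28 in Kelly and 1.00 in SHSY5Y, and by 1.06 in BE2C, and fell by 1.32 in SKNAS on the log2 scale, although treated and untreated arrays of SHSY5Y overlapped. Its difference of 1.77 was 3.60 in the earlier deposit and -0.06 in the later one, and its second row gave -0.03. MCL1, the short-lived survival protein of the BCL2 family, fell in all 4 lines, with changes of -1.17 in Kelly and -0.96 in SHSY5Y, against -0.94 in SKNAS and -0.66 in BE2C (difference -0.27 ± 0.06; adjusted p = 0.014), and was called in neither deposit alone. GAPDH had a difference of 0.01 (adjusted p = 0.96).

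Untreated levels differed between the sides for many genes, with 5487 higher and 6199 lower in Kelly and SHSY5Y of 32858. Of the 963 genes with a lower difference, 426 started higher and 328 lower, at a median untreated difference of 0.06. Of the 169 with a higher difference, 23 started higher and 99 lower, at a median of -0.31. The same untreated arrays are subtracted in each change, so these counts are not independent of the calls. Noise in those arrays favours a higher start for genes called lower and a lower start for genes called higher. The size of this effect was not tested.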

How the data were processed

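RNA was measured on Affymetrix human transcriptome arrays. The deposited log2 values were made by the authors; the submitters' processing notes name RMA, affy and limma, without a role for each, and other steps are not given in the sources used here. Since RMA brings arrays to a common scale, a uniform loss of RNA may not show. The authors' deposited table gives a log2 fold change, mean level, p-value and adjusted p-value per symbol for BE2C and SHSY5Y; only its fold changes and mean levels were used, to name rows by equality within 1e-07. Of 33720 symbols 32858 matched (26741 to 1 row, 6117 to the mean of 2 rows, of which the brighter was used; 97.4%), with 0 matches in the negative controls.

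The 8 group means were fitted to all 24 arrays in limma 3.58.1 (R 4.3.3, lmFit and eBayes), after a test on simulated data. The threshold for a call was 0.05 after Benjamini-Hochberg adjustment over all genes, whatever the fold. SE stands for limma's moderated standard error. Replicates limit the precision of arrays. Kelly minus SKNAS and SHSY5Y minus BE2C share only the estimate of spread. Same-numbered arrays of different lines within a treatment showed little pairing: 5 of 36 such pairs correlated over 0.1 in their deviations. Pairing of treated with untreated arrays of a line was not tested.

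Genes named are the 12 largest differences each way with the same sign in both deposits (leaving out small RNA, antigen and odorant receptor, clone-named and similar symbols), the 4 members with the largest differences in each list given, and a fixed set. The members and lists were chosen with earlier results of these data known, and the 19 lists with named members, and the sympathoadrenal differentiation genes, were picked from 42 after their counts had been seen. Some genes that the rule selects are not reported here. Symbols are those of the authors' table; sequences and positions are RefSeq's. The promoters and motifs printed were picked after other motifs had been searched in these and other promoters without a match. Alternatives covered array scaling, dim rows, minimum fold, rows per gene, array weights, variance trend, replicate block, and leaving out each array or line. Mouse arrays were not used here.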

Additional observations from a re-analysis of the deposited data

Results flagged for a closer look

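For 33 of the named genes the contrast was not the same in the 2 deposits: Kelly minus SKNAS differed from SHSY5Y minus BE2C at an adjusted p under 0.05 in limma, a test that here equals amplified against other lines. The values are the first difference minus the second, on the log2 scale. Negative values, where the earlier deposit had the lower difference, were found for MYCN (-3.96), MIR889 (-1.75), ZFP36L2 (-1.49), HOXD13 (-1.46), MIR544A (-1.45), SNORD114-24 (-1.41), SNORD113-1 (-1.33), NRARP (-1.31), BTG2 (-1.16), ZNF844 (-1.12), CCNG2 (-1.07), AEN (-0.97), HEY1 (-0.84), TBX2 (-0.75) and PIK3R1 (-0.58). Positive values were found for NFE2L3 (3.66), MIR3143 (2.32), MIR590 (2.30), DUSP6 (2.21), MYC (1.74), TXNIP (1.35), HAS2 (1.28), HIST1H2AB (1.11), SLC3A2 (1.00), HIST1H2AK (0.97), CLK1 (0.87), NFKBIZ (0.87), PPP1R15B (0.82), BIRC3 (0.72), SPRY2 (0.72), FOSL1 (0.71), HIST1H3I (0.66) and TRA2B (0.53). MYCN, MYC and DUSP6 were called in opposite directions in the 2 deposits, so their pooled difference describes neither deposit. HIST1H2AB, NFE2L3, MIR590 and BTG2 had a difference near 0 in the later deposit, and SLC3A2 near 0 in the earlier one. Single arrays were not tested as outliers within groups of 3.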

How the results depend on the processing

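The call counts moved with the minimum fold, the array weights and the lines. Against 1132 calls (963 lower, 169 higher), leaving out Kelly gave 334 (269 lower, 65 higher), SHSY5Y 1839 (1475, 364), SKNAS 698 (614, 84) and BE2C 707 (492 lower, with 215 higher). Array weights gave 2263 (1724 lower, 539 higher), and a fold of at least 1.5 gave 136 (104, 32), by construction fewer. Centring array medians gave 106 higher; it moved the lower share of calls to 90.0%, against 85.1% as deposited. Leaving out single arrays gave 916 to 1515 calls, 786 to 1269 lower and 128 to 246 higher. SHSY5Y minus BE2C fell to 207 calls with centring and 109 with the spread of its deposit alone, against 329. With a replicate block, that is the replicate number within each treatment, there were 975 calls (835 lower, 140 higher). Signs turned for MYCN without Kelly (0.37), MYC without SHSY5Y (0.30), NFKBIZ (-0.082), BIRC3 (-0.10) and MIR590 (-0.049) without SKNAS, and DUSP6 without BE2C (0.39). Leaving out 1 of the 24 arrays at a time lost the call in 20 omissions for BIRC3, 18 for CLDN24, 15 for MED13L and 5 for PP12708. The cause was not tested. Dim rows limit what falls can be measured.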
